A study of Mus musculus with 12 samples.

Results

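Calcium/calmodulin-dependent protein kinases (CaM kinases) and the small protein inhibitors of CaMKII are described here in RNA recovered from a pulldown of Gas5, a long noncoding RNA, in cultured mouse neurons. The 10 genes are Camk2a, Camk2b, Camk2d, Camk2g, Camk2n1, Camk2n2, Camkk1, Camkk2, Camk1 and Camk4. They were chosen by name as rows of the total RNA table, with earlier results of these data known. All 10 have a row among its 49489 genes, and all 10 were among the 20049 genes tested. The material was primary hippocampal neurons from P0 pups, kept for 16 days in vitro, with the same cells and no other treatment in every group. Total RNA was sequenced from 3 libraries called antisense and 3 called sense. Neither the capture nor the control is identified by the labels, and separate cultures are not stated for the replicates. The spread behind each p-value is that between libraries and may be technical.

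CaMKII is assembled from alpha, beta, delta and gamma subunits, which are encoded by Camk2a, Camk2b, Camk2d and Camk2g. Calcium-bound calmodulin opens the kinase, neighbouring subunits then phosphorylate each other, and the enzyme stays partly active after calcium has fallen. In hippocampal neurons it is known for its place in the postsynaptic density and in long-term potentiation, and Camk2a mRNA is known to travel into dendrites. A separate cascade runs from the CaM kinase kinases, encoded by Camkk1 and Camkk2, to CaMKI and CaMKIV, encoded by Camk1 and Camk4, and CaMKIV phosphorylates the transcription factor CREB.

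Library totals were 5775052 to 6293093 counts in antisense and 6478779 to 10424167 in sense. Gas5 itself took 9.71% to 14.2% of the antisense counts and 32.7% to 57.1% of the sense counts, and the edgeR fit put it at a log2 fold change, antisense minus sense, of -2.78 (SE 0.286, adjusted p = 3.76e-06). Levels are given as CPM, counts scaled to a common library size by TMM, a factor that sets most genes level between libraries. On that scale all genes tested had a median log2 fold change of -0.01. Differences are therefore relative to the bulk of the RNAs in a library and not to the amount recovered. All 10 listed neuron markers had counts in all 6 libraries, as had all 7 astrocyte and all 7 oligodendrocyte lineage markers listed. The cultures thus held RNA of glia beside that of neurons. These are pulldown libraries, so a difference between the groups may also lie in which RNAs were recovered. In such bulk libraries that, fewer cells of a type and less RNA per cell cannot be told apart.

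Among the 10 genes, Camk2a and Camk2b were lower in antisense than in sense on the TMM scale, though not on library totals alone, Camk1 was higher on either scale, and 7 did not pass. An adjusted p below 0.05 in edgeR's quasi-likelihood test, with Benjamini-Hochberg adjustment over all genes tested, counted as passing. So 2 of 10 passed as lower, where 4.35% of all genes tested did, and 1 of 10 passed as higher, where 18.2% did. Because the 10 genes were chosen with earlier results of these data known, these shares are a description. Library totals alone include Gas5 and put the median of all genes tested at 0.70, and 12804 of the 20049 genes passed as higher. Passing as higher in that setting was thus common. There Camk2a was at 0.24, Camk2b at 0.41 and Camk1 at 1.17. Library totals with Gas5 left out gave -0.49 for Camk2a, -0.30 for Camk2b and 0.48 for Camk1. On the TMM scale the median log2 fold change of the 10 was -0.14, and 7 of the 10 values were negative. The antisense and sense libraries did not overlap for 6 of the 10 genes, against 36.6% of all genes tested. Of these 6, Camk2a, Camk2b and Camkk1 had all antisense libraries below all sense libraries, as had 13.2% of all genes tested, and Camk2d, Camk2n2 and Camk1 had them above, as had 23.4%. Camk2n2 was tested only because of its antisense counts, and without it 5 of 9 genes did not overlap.

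**Figure D1:**
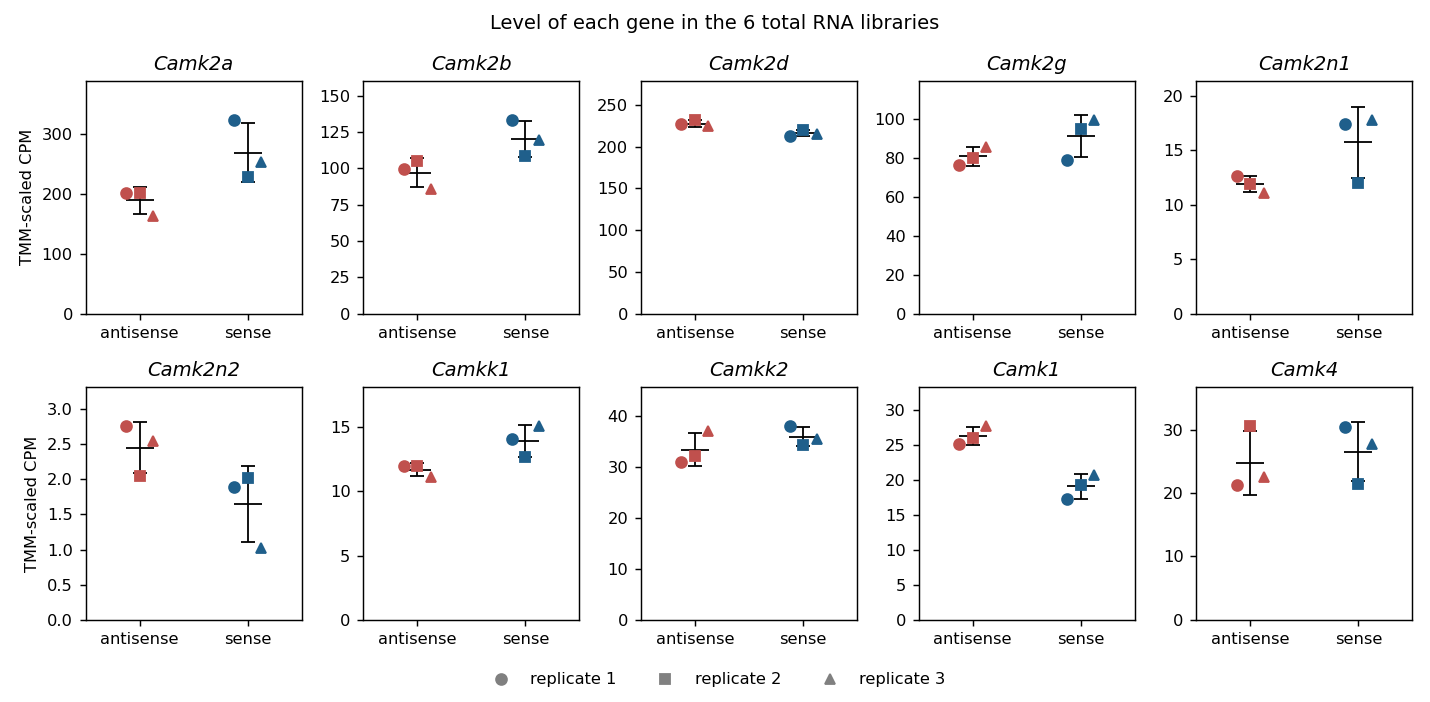
TMM-scaled CPM of each of the 10 genes in the 3 antisense and 3 sense total RNA libraries. On library totals alone the difference of Camk2a has the opposite sign. Points are libraries, horizontal marks are group means and bars are SD (n = 3), and each vertical axis starts at 0 with its own range. Camk2a runs from 163 to 202 CPM for antisense and from 228 to 323 CPM for sense, and Camk1 from 25.1 to 27.7 CPM and from 17.2 to 20.7 CPM.

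Camk2a encodes the alpha subunit, the form that is most typical of excitatory forebrain neurons. It stood at 202, 201 and 163 CPM in antisense replicates 1, 2 and 3 and at 323, 228 and 253 CPM in sense replicates 1, 2 and 3. Every antisense library was below every sense library, and sense replicate 1 stood well above the other sense libraries. Mean levels were 189 ± 22.0 CPM for antisense and 268 ± 49.3 CPM for sense (SD, n = 3 each), so the level was 1.42 times as high in sense. On the log2 scale the difference was -0.51 (SE 0.126), with an edgeR adjusted p = 0.00791. Without sense replicate 1 it was -0.36 and did not pass (edgeR adjusted p = 0.0515). The other 5 fits that leave out 1 library gave adjusted p-values of 0.00287 to 0.0304. RefSeq places Camk2a on chromosome 18, from 60925307 to 60988152, in build GRCm38.p6. Inside that span lie the miRNA genes Mir7220 and Mir6982 and the long noncoding RNA gene Gm46632.

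Camk2b encodes the beta subunit, which binds actin filaments. Its level was 99.5, 105 and 85.9 CPM in the antisense libraries and 133, 109 and 119 CPM in the sense libraries. The groups did not overlap, but antisense replicate 2 and sense replicate 2 lay close together. The means were 96.8 ± 9.87 and 120.4 ± 12.4 CPM (SD, n = 3 each), and edgeR gave -0.31 on the log2 scale (SE 0.105, adjusted p = 0.0446). This call was close to the threshold: it was kept in 4 of 15 alternative analyses, whose adjusted p-values ran from 0.0267 to 0.190. Without sense replicate 1 the log2 fold change was -0.25 (adjusted p = 0.190). Camk2b spans chromosome 11 from 5969629 to 6066357 and overlaps no other gene in the RefSeq table.

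Camk2d encodes the delta subunit, which is found in many tissues and is the main form of the heart. It was at 227, 232 and 224 CPM in antisense and at 213, 220.0 and 215 CPM in sense. The values were tight within each group and the groups did not overlap, yet the log2 fold change was only 0.08 (SE 0.0831) and did not pass (edgeR adjusted p = 0.573). The gene spans chromosome 3 from 126595487 to 126846326. Inside that span lies the long noncoding RNA gene Gm15551, from 126667329 to 126668943. Gm15551 had 27, 33 and 25 counts in the antisense libraries and 0, 1 and 0 in the sense libraries. It was picked out after its values were seen, so these counts are a description with no test. Since counting by strand is not stated, reads of Camk2d and of a partner inside it may not be told apart. The Camk2d counts were 1724, 1808 and 1674 in antisense and 1346, 1412 and 1256 in sense, so the counts of Gm15551 were few beside them.

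Camk2g encodes the gamma subunit, a broadly expressed form. It stood at 76.4, 80.0 and 85.7 CPM in antisense and at 78.9, 95.0 and 99.5 CPM in sense. Sense replicate 1 fell among the antisense libraries, and the log2 fold change of -0.17 (SE 0.103) did not pass (edgeR adjusted p = 0.264). Unlike Camk2a and Camk2b, Camk2g had its lowest sense level in replicate 1.

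**Figure D2:**
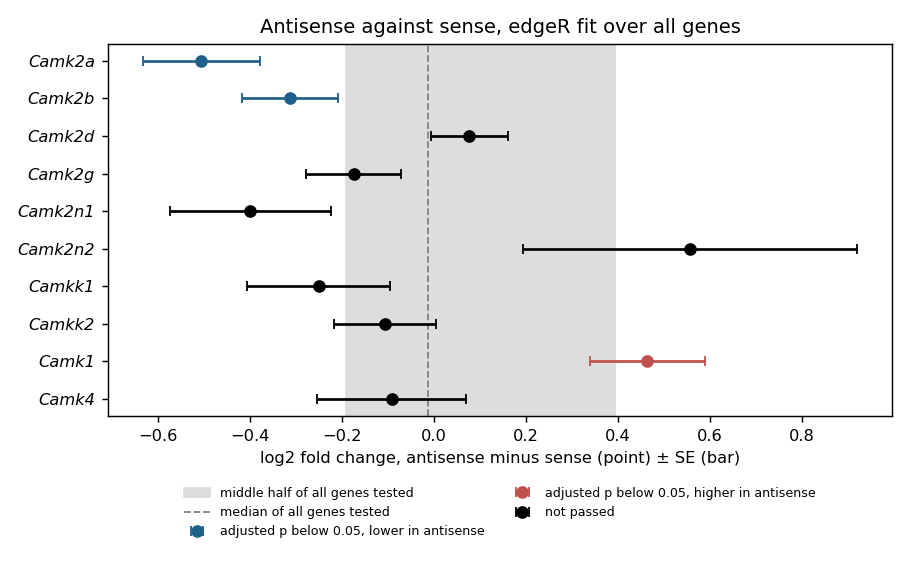
Log2 fold change, antisense minus sense, of the 10 genes from the edgeR fit over all genes, with SE as bars. The grey band runs from the lower to the upper quartile of all genes tested, -0.19 to 0.39, and the dashed line is their median, -0.01. Camk2a (-0.51) and Camk2b (-0.31), which turn positive on library totals alone, lie left of the band, and Camk1 (0.46) lies right of it.

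A share within a library needs no scaling between libraries, and the libraries of the groups did not overlap in the shares of Camk2a and Camk2d among the CaMKII counts. Camk2a held 33.4%, 32.5% and 29.2% of the counts of the 4 CaMKII kinase genes in antisense and 43.2%, 35.0% and 36.8% in sense. Camk2d held 37.5%, 37.6% and 40.1% in antisense and 28.4%, 33.8% and 31.3% in sense. In antisense Camk2d had the largest share of the counts in every library, and in sense Camk2a had it in every library. These are shares of counts, which depend on transcript length as well as on molecules. Transcript lengths were not used here, so no gene's level is set against another's. Camk2b took 16.3% ± 0.835 in antisense and 17.3% ± 0.580 in sense, and Camk2g 13.6% ± 1.48 and 13.2% ± 2.31 (SD, n = 3 each), with overlapping libraries for Camk2b and Camk2g.

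**Figure D3:**
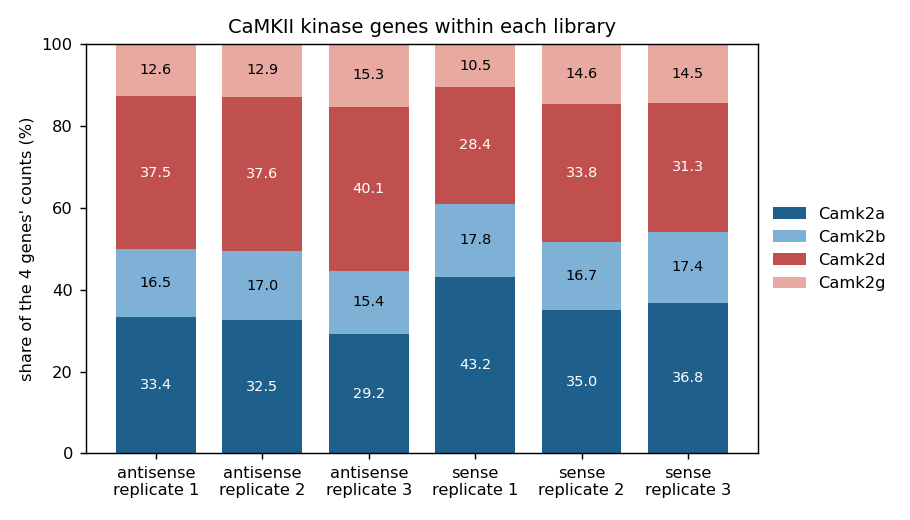
Share in percent of Camk2a, Camk2b, Camk2d and Camk2g in their summed counts, 1 bar per total RNA library. Camk2a holds 29.2% to 33.4% in the antisense libraries and 35.0% to 43.2% in the sense libraries, and Camk2d holds 37.5% to 40.1% and 28.4% to 33.8%.

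Of 6 count ratios compared within libraries, none had a permutation p that could pass. The log2 ratio of Camk2d plus Camk2g to Camk2a plus Camk2b was 0.12 ± 0.172 in antisense and -0.33 ± 0.285 in sense (SD, n = 3 each), a difference of 0.45 (exact permutation p = 0.10, two-sided). It ran from 0.29 without sense replicate 1 to 0.56 without sense replicate 2. The log2 ratio of Camk2a to Camk2b was 0.96 ± 0.0511 and 1.14 ± 0.116, a difference of -0.18 (exact permutation p = 0.10), and it ran from -0.22 without sense replicate 2 to -0.12 without sense replicate 1. With 3 libraries against 3, 0.10 is the smallest p that this test can give, and adjusted over the 6 ratios these p-values were 0.20, so neither difference passed. Camk2a had 1.90 to 2.03 times the counts of Camk2b in antisense and 2.10 to 2.42 times in sense. The 4 CaMKII kinase genes together summed to 594 ± 30.9 CPM for antisense and 696 ± 48.8 CPM for sense (SD, n = 3 each), without overlap.

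The CaMKII inhibitor genes, whose small protein products bind the active kinase and block it, had few counts, and neither passed. Camk2n1 had 96, 93 and 83 counts in antisense and 110, 77 and 104 in sense. On the CPM scale this was 12.6, 11.9 and 11.1 in antisense and 17.4, 11.998 and 17.8 in sense. Sense replicate 2 lay within the antisense range, and the other sense libraries lay above it. The log2 fold change of -0.40 (SE 0.175) did not pass (edgeR adjusted p = 0.126), and without sense replicate 2 it was -0.57 and passed (adjusted p = 0.0202). Camk2n1 lies on chromosome 4 from 138455148 to 138460126 and overlaps no other gene in the RefSeq table.

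Camk2n2 was the least counted of the 10 genes, with 21, 16 and 19 counts in antisense and 12, 13 and 6 in sense. It entered the test through the antisense group, where all 3 libraries reached the count minimum. The levels were 2.76, 2.05 and 2.55 CPM in antisense and 1.90, 2.03 and 1.03 CPM in sense, and antisense replicate 2 and sense replicate 2 were nearly equal. Its log2 fold change was 0.56 with an SE of 0.363 and did not pass (edgeR adjusted p = 0.318). At this depth a difference of that size could not be told from the spread. Camk2n2 lies inside the span of the protein-coding gene Eef1akmt4-ece2, which was not among the genes counted. Relative to the 4 CaMKII kinase genes, the mean log2 ratio of Camk2n2 was 0.85 higher in antisense, which is given as a description because the gene entered through that group. For Camk2n1 the log2 ratio to the same genes differed by -0.16 with overlapping libraries (exact permutation p = 0.40; 0.60 adjusted).

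In the CaM kinase kinase cascade, Camk1 passed and Camkk1, Camkk2 and Camk4 did not. Camk1 encodes CaMKI, a kinase of the cytosol known for its part in axon and dendrite growth. It stood at 25.1, 26.1 and 27.7 CPM in antisense and at 17.2, 19.3 and 20.7 CPM in sense. All antisense libraries lay above all sense libraries, with a gap wider than the spread within either group. The means were 26.3 ± 1.33 and 19.1 ± 1.76 CPM (SD, n = 3 each), 1.38 times as high in antisense by the fit, which is 0.46 on the log2 scale (SE 0.125, edgeR adjusted p = 0.0129). Without sense replicate 1 it was 0.38 and did not pass (adjusted p = 0.0767). It passed in the other 14 of 15 alternative analyses.

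Camk1 spans chromosome 6 from 113334124 to 113343922, and its end overlaps Ogg1, the gene of a DNA repair glycosylase, which spans 113326972 to 113334877. Ogg1 stood at 7.32 to 10.4 CPM in antisense and 9.65 to 10.6 CPM in sense, with a log2 fold change of -0.20 (SE 0.193) that did not pass (edgeR adjusted p = 0.521). On library totals alone Ogg1 was at 0.51, beside 1.17 for Camk1. Reads in the overlap may have been given to either gene, and their part in the value of Camk1 was not tested.

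The kinase kinases had small differences. Camkk1, the alpha form, was at 11.96, 11.94 and 11.12 CPM in antisense and 14.1, 12.6 and 15.1 CPM in sense. The groups did not overlap, but the log2 fold change of -0.25 (SE 0.156) did not pass (edgeR adjusted p = 0.290). Camkk2, the beta form, which also phosphorylates AMP-activated protein kinase (AMPK), was at 31.0, 32.1 and 37.1 CPM in antisense and 38.1, 34.4 and 35.5 CPM in sense. Its libraries overlapped, and its log2 fold change was -0.11 (SE 0.111; edgeR adjusted p = 0.548). The log2 ratio of Camkk1 to Camkk2 differed by -0.14 (exact permutation p = 0.60; 0.60 adjusted over the 6 ratios). Camkk2 overlaps the protein-coding gene P2rx4, which had 316, 329 and 301 counts in antisense and 223, 358 and 232 in sense. Camkk1 overlaps the long noncoding RNA gene 4732414G09Rik. Reads in these overlaps may have been given to either gene, and their part in the values was not tested.

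Camk4 encodes CaMKIV, a largely nuclear kinase. It varied most within the antisense group, at 21.3, 30.6 and 22.5 CPM, and stood at 30.4, 21.3 and 27.7 CPM in sense. Antisense replicate 2 had the highest of the 6 values, and the lowest of both groups were nearly equal. The log2 fold change was -0.09 (SE 0.162; edgeR adjusted p = 0.742), and it was 0.00085 without antisense replicate 1 and 0.0032 without sense replicate 1. Relative to the 4 CaMKII kinase genes the log2 ratio of Camk4 differed by 0.13 (exact permutation p = 0.60; 0.60 adjusted). The span of Camk4 overlaps that of the long noncoding RNA gene 2310026I22Rik, which had 0 to 4 counts per library.

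The sense libraries were not alike. The Gas5 share was highest in sense replicate 1 and lowest in sense replicate 2. Among the 10 genes, Camk2a, Camk2b, Camkk2 and Camk4 had their highest sense level in replicate 1 and their lowest in replicate 2, and 6 of the 10 had their lowest in replicate 2. Camk1, Camk2d and Camk2g had their lowest sense level in replicate 1. The part of these differences between libraries in the calls was not tested beyond leaving each library out.

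**Figure D4:**
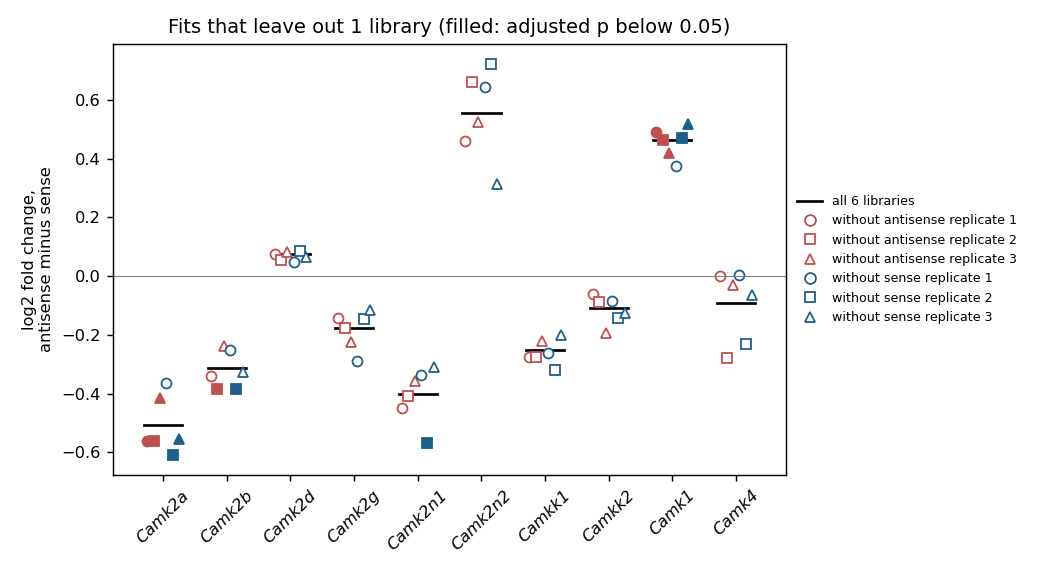
Log2 fold change, antisense minus sense, of each gene when 1 of the 6 libraries is left out (symbols, filled where the edgeR adjusted p is below 0.05) and over all 6 libraries (horizontal line). All values are on the TMM scale, and on library totals alone Camk2a turns positive. Camk2a runs from -0.61 to -0.36 and Camk1 from 0.38 to 0.52, and neither passes without sense replicate 1.

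The summed level of the 10 neuron markers, which include Map2, Syt1, Slc17a7 and Gad1, was 840 to 1075 CPM in antisense and 1068 to 1337 CPM in sense. None of the 9 neuron markers tested passed in edgeR, 6 had an unadjusted p below 0.05, and DESeq2 and limma voom each passed 1. The part of the neuron markers in the values of Camk2a and Camk2b was not tested beyond percentages of their counts. Astrocyte markers summed to 1077 to 1367 CPM in antisense and 1259 to 1646 CPM in sense. Of the 7 tested, 1 passed on the TMM scale, Aldh1l1, which was lower in antisense, where 4.35% of all genes tested passed as lower. S100b had a positive log2 fold change (0.31) that did not pass. Oligodendrocyte lineage markers summed to 339 to 363 CPM and 361 to 471 CPM. Microglia markers were scarce, at 17.6 to 21.4 CPM in antisense and 9.08 to 12.02 CPM in sense. Among them P2ry12 had 33, 28 and 30 counts in antisense and 0, 0 and 2 in sense. It entered the test only through the antisense group, so its counts are a description with no test. Vascular and fibroblast markers stood at 64.3 to 67.8 CPM and 70.1 to 84.6 CPM. Among them Cldn5 had 0, 0 and 2 counts in antisense and 0 in every sense library.

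Set against the summed counts of the neuron markers in the same library, the groups did not overlap for Camk2a and overlapped for Camk2b. Camk2a counts were 20.0%, 18.7% and 19.5% of the neuron marker counts in antisense and 24.2%, 21.4% and 21.7% in sense, without overlap. Camk2b counts were 9.95% ± 0.246 in antisense and 10.1% ± 0.132 in sense (SD, n = 3 each), with overlapping libraries. Camk2d stood at 23.6% ± 2.75 and 18.3% ± 2.34 and Camk1 at 2.74% ± 0.491 and 1.62% ± 0.291, and both were higher in all 3 antisense libraries. The 4 CaMKII kinase genes together came to 61.3% ± 4.74 in antisense and 58.6% ± 2.54 in sense, with overlapping libraries and the higher mean in antisense, where their summed CPM was lower. Most of the neuron marker counts were those of Map2, which had a mean of 628 CPM in antisense and 762 CPM in sense. The percentages are thus largely relative to this 1 gene. They were chosen after the data were seen and carry no test.

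The other genes of the pathway, 55 in 7 lists, were mostly a little below 0. Of the 53 tested, 3 passed as lower on the TMM scale and none as higher, where 18.2% of all genes tested passed as higher. On library totals alone none of the 53 passed as lower and 24 as higher. In that setting 12804 of all 20049 genes tested passed as higher and 62 as lower. On the TMM scale 45 of the 53 had a negative log2 fold change. Their median was -0.19, beside -0.01 for all genes tested and -0.07 for protein-coding genes tested. The share passing as lower can be read against 4.35% of all genes tested. As the lists were chosen with earlier results of these data known, these comparisons are a description. All 13 CaMKII anchors and substrates were negative on the TMM scale, with a median of -0.21, where 39.1% of protein-coding genes tested were positive. On that scale all 9 tested neuron markers were negative too, as were the astrocyte markers except S100b, so the direction was not particular to this list. On library totals alone all 13 were positive. In that list only Syn1 passed, which encodes the vesicle protein synapsin I, a CaMKII substrate (log2 fold change -0.69, SE 0.186; edgeR adjusted p = 0.0137). Shank3, a postsynaptic scaffold gene, had -0.35 (adjusted p = 0.0526), and Grin2b, the gene of the NMDA receptor subunit that holds CaMKII at the synapse, had -0.27 (adjusted p = 0.0875). Syn1 no longer passed when antisense replicate 2, antisense replicate 3 or sense replicate 1 was left out, with adjusted p-values of 0.0501, 0.0503 and 0.0792.

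Among 7 tested genes of other calmodulin-dependent or related kinases, Camk1d was lower and 6 did not pass (median -0.18). Camk1d encodes the delta form of CaMKI. It stood at 25.2, 27.1 and 27.2 CPM in antisense and at 34.3, 37.6 and 40.8 CPM in sense, without overlap. Its log2 fold change was -0.50 (SE 0.111; edgeR adjusted p = 0.00334), against 0.46 for Camk1, so on the TMM scale these CaMKI genes differed between the groups in opposite directions. On library totals alone Camk1d was at 0.20 and did not pass. Camk1d passed whichever library was left out. Dapk1 (-0.18) and Camkv (-0.21), which encodes a CaM kinase-like vesicle-associated protein, did not pass.

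No gene of calmodulin or of the proteins that buffer it passed in edgeR, DESeq2 or limma voom, and 1 of each list had an unadjusted edgeR p below 0.05. Among the calmodulin genes, Calm3 had a log2 fold change of -0.37 and Calm2 one of -0.12. Of the calmodulin-binding buffer genes, Gap43 had -0.46 and Nrgn, which encodes the postsynaptic protein neurogranin, -0.54, while Pcp4 had 0.30. Without sense replicate 2, Calm3 passed at -0.59 (edgeR adjusted p = 0.00283), and without antisense replicate 1 Gap43 passed at -0.69 (adjusted p = 0.0457).

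Of 12 tested phosphatase genes and their regulators, Ppp1r9b was lower and 11 did not pass (median -0.16). Ppp1r9b encodes spinophilin, which brings protein phosphatase 1 to dendritic spines, and stood at -0.38 (SE 0.117, edgeR adjusted p = 0.0283). The call was lost when antisense replicate 2 (adjusted p = 0.103) or sense replicate 1 (0.0886) was left out. The catalytic subunit genes Ppp2ca (-0.22) and Ppp1cb (-0.18) did not pass. None of the 8 CREB family and coactivator genes passed in edgeR, DESeq2 or limma voom (median -0.18; 2 with an unadjusted edgeR p below 0.05), with Ep300 at -0.22, Crebbp at -0.19 and Atf1 at -0.39. None of the 7 AMPK genes passed by these tools either (median -0.21; 1 with an unadjusted edgeR p below 0.05), with Prkag2 at -0.26, Prkag1 at -0.42 and Prkaa2 at -0.23.

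**Figure D5:**
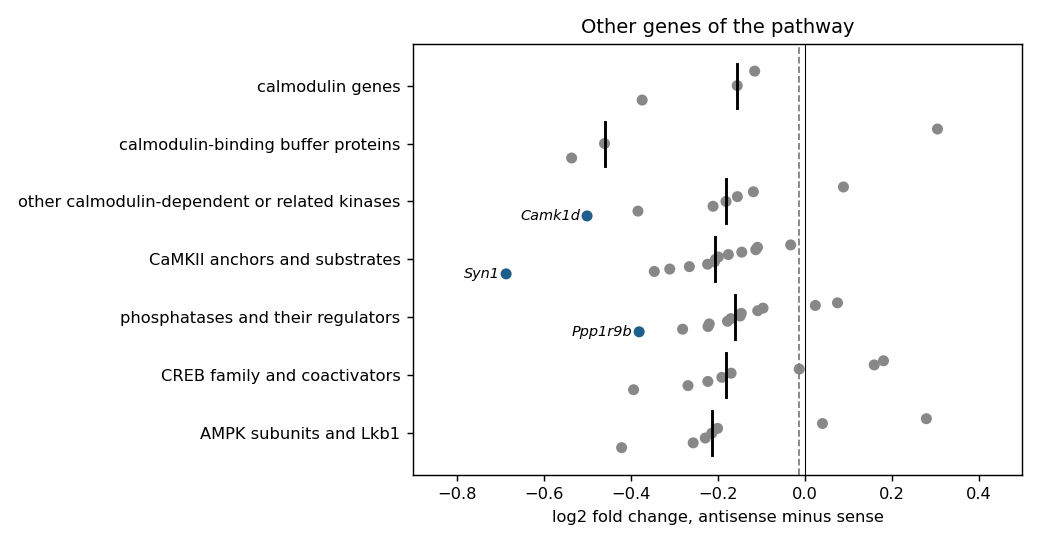
Log2 fold change, antisense minus sense, of the 53 tested pathway genes by list. Each point is a gene, vertical bars are list medians, the dashed line is the median of all genes tested (-0.01), and blue points with names passed as lower on the TMM scale, though not on library totals alone. List medians lie between -0.46 and -0.16, and Camk1d, Syn1 and Ppp1r9b are the named points.

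The tested genes of at least 10 CPM most like Camk2a in log2 CPM over the 6 libraries were Usp25, Tdrd7 and Pabpc1. Pabpc1 encodes the cytoplasmic poly(A)-binding protein. Their Pearson r was 0.998, 0.995 and 0.995, and 849 of 10992 genes compared reached 0.9, so such likeness was common. Their log2 fold changes were -0.27, -0.31 and -0.25, of which only Tdrd7 passed (edgeR adjusted p = 0.0465), a call lost in every fit that leaves out 1 library except that without sense replicate 2. Most like Camk2n1 were Gm24336, Bmp1 and the basement membrane collagen gene Col4a1, with r of 0.993, 0.992 and 0.990. The points share the 6 libraries and their group difference, and the values describe these libraries only.

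The authors' deposited table gives the opposite sign convention, with Gas5 at a log2 fold change of 2.78. In the authors' deposited table Camk2a had 0.51 (adjusted p = 0.00107), and it was the 1 gene of the 10 with an adjusted p below 0.05 there. In the same authors' deposited table Camk2b had 0.32 (adjusted p = 0.0519) and Camk1 -0.46 (adjusted p = 0.0702).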

How the data were processed

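The authors' deposited total RNA table holds estimated counts per gene for 6 libraries. The submitters' processing notes name Salmon, DESeq and GRCm38, without settings, transcript index or strand use. The authors' deposited comparison table lists per gene a normalised mean signal, log2 fold change, SE, p-value and adjusted p-value. The small RNA tables were not used.

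Estimated counts were rounded. Genes were kept by filterByExpr (minimum count 10), scaled by TMM and tested with edgeR 4.0.16 (quasi-likelihood F test, two-sided, antisense minus sense, no further term). The SE is the log2 fold change over the square root of F. Count ratios were compared with the exact permutation test in scipy 1.17.1. DESeq2 1.42.0 and limma 3.58.1 served as alternatives. Named genes are Gas5, the 10 genes, from each pathway list the 3 with the smallest p, and for Camk2a and Camk2n1 the 3 most correlated genes, with log2(CPM + 1). Ogg1, Gm15551, Aldh1l1, S100b and P2ry12 were chosen after their values were seen, as were the percentages of neuron marker counts. The other genes overlapping a member were named for their position. The members and lists were chosen with earlier results of these data known. A gene that the rule picks is not reported here by name and stays in the counts. Positions come from RefSeq (GRCm38.p6), matched by symbol. On simulated counts, 41.1% of genes changed 1.5-fold, 68.5% changed 2-fold and 95.8% changed 4-fold were recovered, so 1.5-fold changes were often missed. The changed genes were drawn at random over all abundances, and most genes were left unchanged. Gas5 was given the same low share in every library, unlike in the data. These rates are therefore not those of Camk2a or another single gene.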

Additional observations from a re-analysis of the deposited data

How the results depend on the processing

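Of the 10 genes, 2 passed as lower and 1 as higher, and the second count kept its value except on library totals alone (6 higher, 0 lower) and without sense replicate 1. On library totals alone 12804 of all 20049 genes tested passed as higher and 62 as lower. With DESeq2 size factors, Gas5 left out, a minimum count of 50, the DESeq2 Wald test, limma voom or a replicate block, 1 of the 10 passed as lower, because Camk2b missed the threshold (adjusted p = 0.051, 0.0654, 0.0856, 0.0537, 0.0514 and 0.0654). Leaving out 1 library gave 0 to 3 lower and 0 to 1 higher members, and 1 to 6 lower and 0 higher pathway genes. The Camk4 ratio to the CaMKII genes ran from -0.0025 to 0.24 in these fits. On library totals alone 0 pathway genes were lower and 24 higher, and 33 named genes that were negative turned positive: Camk2a 0.24, Camk2b 0.41, Camk2g 0.51, Camk2n1 0.35, Camkk1 0.47, Camkk2 0.61, Camk4 0.65, Calm3 0.39, Calm2 0.64, Gap43 0.27, Nrgn 0.22, Camk1d 0.20, Dapk1 0.52, Camkv 0.52, Syn1 0.074, Shank3 0.40, Grin2b 0.46, Ppp1r9b 0.34, Ppp2ca 0.50, Ppp1cb 0.55, Ep300 0.49, Crebbp 0.52, Atf1 0.32, Prkag2 0.47, Prkag1 0.31, Prkaa2 0.49, Usp25 0.46, Tdrd7 0.42, Pabpc1 0.47, Gm24336 0.39, Bmp1 0.54, Col4a1 0.41 and Ogg1 0.51. On library totals without Gas5, a setting chosen after seeing the data, 2 members were lower and 1 higher. Calm2 ran from -0.33 to 0.10 and Camk4 from -0.28 to 0.0032 when 1 library was left out. The cause of the other lost calls was not tested. Same-numbered libraries had correlations of deviations from their group mean of 0.181, -0.250 and -0.039. With 3 libraries per group these values cannot show whether same-numbered libraries share a culture or batch. With a replicate block 3428 genes were higher and 695 lower, against 3658 and 873. Camk2n2, with 6 to 21 counts, was not tested at a minimum count of 50. Camk2n1 had 77 to 110 counts. Its SD was 6.33% of the mean CPM in antisense and 20.6% in sense, where counting alone would give about 10.3%. The part of depth in its missed call was not tested.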
